A study of Mus musculus with 4 samples.

Results

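The EHD family comprises the 4 genes Ehd1, Ehd2, Ehd3 and Ehd4, and all 4 were found by symbol among the 27179 genes of the deposited count table. They were followed in ILC2s, lymphocytes without antigen receptors that make type 2 cytokines. Ehd3 brought the family forward, because its counts were 0 in both libraries treated with deoxycholic acid (DCA), a secondary bile acid, and its values are therefore described without a test. Ehd1, Ehd2 and Ehd4 entered as its paralogs, by name, to ask whether they offset the loss of Ehd3 RNA. ILC2s were sorted from the large intestine of wild-type C57BL/6 mice and cultured for 5 days in complete IMDM with IL-33, IL-25, IL-7 and IL-2, each at 10 ng/mL. They then received vehicle (2 libraries) or DCA (2 libraries). The DCA dose was 100 μM by the methods of the study. The treatment lasted 16 hours by the deposited design text and 24 hours by those methods. The sources used here do not say whether the libraries of a treatment came from separate mice or cultures, so p-values measure only the spread between these libraries. In bulk RNA, fewer cells that express a gene and less RNA per cell cannot be told apart.

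EHD proteins are ATPases related to dynamin that assemble on endosomal membranes. Their C-terminal EH domain binds partners that carry an asparagine-proline-phenylalanine motif. They help return internalized receptors, such as the transferrin receptor, to the cell surface. EHD1 and EHD3 are known for work at the recycling compartment, EHD4 at early endosomes, and EHD2 at the neck of caveolae.

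Libraries held 26564059 to 35838342 counts, except DCA replicate 2, which held 244165712. Counts were scaled to CPM, counts per gene set to a common library size, and a library at 0 counts allows up to 3 counts, which is 0.0125 CPM in DCA replicate 2 and 0.0820 to 0.115 CPM in the others. These limits cover counting error only and would be wider if each mate of a pair added a count. Of 10 markers of ILC2s, including Gata3, Il1rl1 and Klrg1, 9 were above 1 CPM in every library, and their summed level was 7151 to 7376 CPM without and 7391 to 7413 CPM after DCA. The exception was Thy1. Single markers moved in opposite directions within that sum. Il1rl1 was lower in both DCA libraries (832 and 876 CPM with vehicle, 598 and 533 CPM with DCA). Klrg1 was lower as well (688 and 678 with vehicle, 463 and 356 with DCA). Higher in both were Il2ra (1074 and 1230, against 1613 and 1583.5) and Il7r (373 and 350, against 582 and 461). In the edgeR quasi-likelihood fit the unadjusted p was 0.0229 for Il1rl1, 0.0154 for Klrg1, 0.0459 for Il2ra and 0.0531 for Il7r. For the other ILC2 markers it was 0.129 or more, and 4.27% of all genes tested were below 0.05. The adjusted p of the markers named was 0.999, and libraries did not overlap for 33.3% of all genes tested. Over the 4 libraries the summed level was 3.71 to 11.5 CPM for 5 endothelial markers and 0.0309 to 1.45 CPM for 5 stromal markers, cells in which Ehd2 is abundant. For 6 macrophage markers the sum was 23.97 to 24.65 CPM with vehicle and 7.30 to 10.2 CPM with DCA, nearly all of it Cd68, with Csf1r and Cd14 at 0 in every library. For 6 T cell markers it was 14.5 to 26.6 CPM with vehicle and 11.2 to 21.7 CPM with DCA, with Cd4 and Cd8a at 0 throughout. For 5 B cell markers it was 47.2 to 55.1 CPM with vehicle and 37.7 to 44.5 CPM with DCA, with Pax5 at 0 throughout, and for 6 epithelial markers it was 8.28 to 13.5 CPM with vehicle and 7.73 to 8.996 CPM with DCA. The sum over 5 ILC3 markers was 0 with vehicle and at most 1.48 CPM with DCA. The part of these marker levels in the values below was not tested.

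Ehd3 (Entrez gene 57440) lies on the plus strand of chromosome 17 from 73804134 to 73832094 (GRCm38, GENCODE M21). It has 6 exons in a coding transcript of 3659 bases, and no other annotated gene overlaps it. The vehicle libraries held 636 (replicate 1) and 212 (replicate 2) counts of Ehd3, and both DCA libraries held 0. In CPM its level was 17.4 and 8.09 with vehicle, a 2.15-fold spread between the replicates. Both vehicle libraries were above both DCA libraries. At the lower vehicle level, DCA replicate 1 would have held 262 counts of Ehd3 and DCA replicate 2, the deepest library, 1948. The floor of 3 counts per library had a mean of 0.0526 CPM over the DCA libraries, which differ in depth. Against that mean floor the vehicle mean was 242-fold higher, and vehicle replicate 2 alone 153.8-fold higher. On the log2 scale the ratio of DCA over vehicle was -7.92, and it was -7.10 without DCA replicate 2. At a floor of 6 counts it was -6.92.

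**Figure D1:**
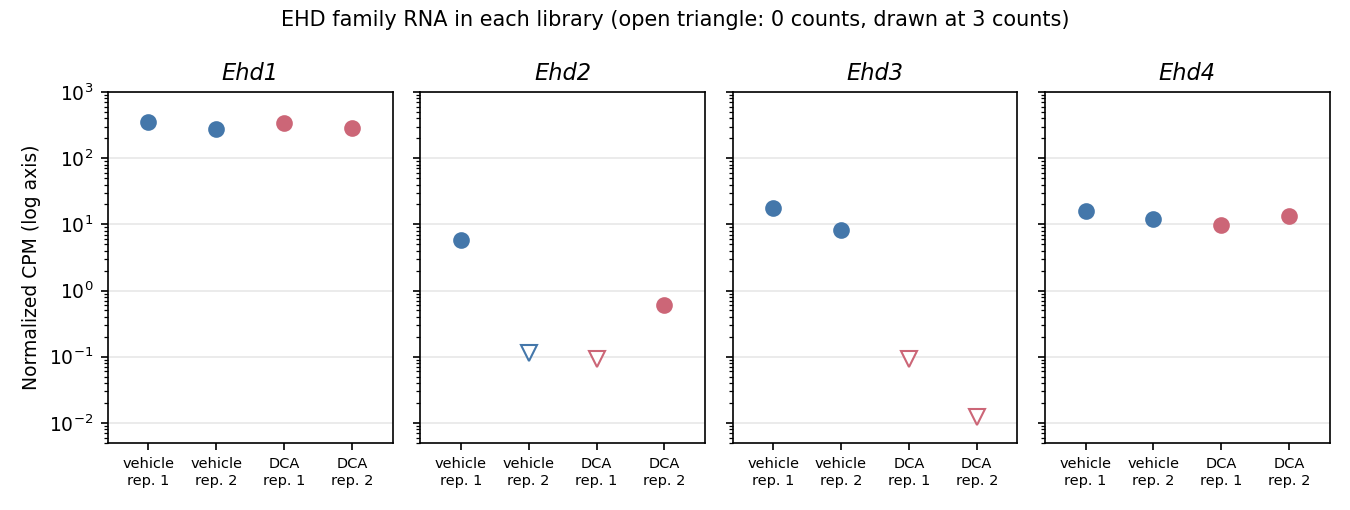
Normalized CPM (log axis) of Ehd1, Ehd2, Ehd3 and Ehd4 in the 2 vehicle and 2 DCA libraries, 1 point per library, with open triangles for libraries at 0 counts drawn at the level of 3 counts. Ehd1 lies between 274 and 351 CPM in all 4 libraries, and Ehd3 lies at 17.4 and 8.09 CPM with vehicle and at 0 counts with DCA.

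Because the family arose by duplication, its coding sequences were compared to see whether reads could pass between members. Ehd1 and Ehd3 were the closest pair, with 80.0% of aligned coding bases identical, and the other pairs shared 70.1% to 73.7%. The longest run of bases that Ehd1 and Ehd3 transcripts shared was 40, and it is shown because it is the stretch where a short read could least be told apart. It lies in the last exon of both genes (exon 5 of Ehd1, chromosome 19, 6298480 to 6298519, and exon 6 of Ehd3, chromosome 17, 73830324 to 73830363, both GRCm38, plus strand), at coding bases 1487 to 1526 of each.
Ehd1 and Ehd3 shared run: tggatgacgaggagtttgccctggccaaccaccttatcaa
No window of 50 bases was identical between any pair of members, so a read of that length or longer without mismatch matches 1 of these transcripts only. How the authors treated reads that align to more than 1 gene is not given in the sources used here.

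The bases before the start of the coding transcript were taken from RefSeq, in which 3 of the 4 members matched, Ehd2, Ehd3 and Ehd4. Ehd3 and Ehd4 are shown as the member with no count under DCA and the paralog of like level that was found in every library. The Ehd3 stretch is chr17:73804591-73804840 on the plus strand and the Ehd4 stretch chr2:120154607-120154825 on the minus strand (GRCm38.p6). Each is read from the 250 bases before the RefSeq start, and for Ehd4 the last 31 are left out because GENCODE starts its coding transcript there. The Ehd3 stretch lies inside the gene span given above, but the GENCODE coding transcript of Ehd3 does not start within it. Capitals mark CCAAT on either strand.
Ehd3: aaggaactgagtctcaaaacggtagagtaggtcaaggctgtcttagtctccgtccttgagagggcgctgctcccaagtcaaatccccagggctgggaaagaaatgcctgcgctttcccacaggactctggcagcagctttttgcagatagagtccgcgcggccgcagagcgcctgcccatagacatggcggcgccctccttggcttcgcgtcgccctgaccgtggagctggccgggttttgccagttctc
Ehd4: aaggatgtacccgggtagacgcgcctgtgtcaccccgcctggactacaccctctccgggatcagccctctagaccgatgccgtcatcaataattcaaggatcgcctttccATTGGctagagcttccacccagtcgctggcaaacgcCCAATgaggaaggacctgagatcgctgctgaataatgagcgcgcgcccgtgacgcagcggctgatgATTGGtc
Over the full 250 bases Ehd3 had 16 CpG dinucleotides, Ehd4 21 and Ehd2 12, where the median of 32851 RefSeq promoters was 6. In the same 250 bases CCAAT was found 3 times for Ehd4, 1 time for Ehd2 and 0 times for Ehd3, and 33.8% of all promoters held it. GGGCGG was found 1 time each for Ehd4 and Ehd2 and 0 times for Ehd3, with 32.7% of all promoters holding it, and the Ehd4 match lies in the 31 bases left out, within the transcript as GENCODE draws it. The letters TATAAA (12.4% of all promoters) and TGATGCAA, which ATF4 is known to bind (0.791%), were in none of the 3 stretches, nor was the ER stress element (0.113%), in which 9 free bases part CCAAT from CCACG and whose first letters overlap the CCAAT search. These matches are descriptions of letters in this window and draw nothing about the factors.

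Ehd1 (Entrez gene 13660, chromosome 19, 6276725 to 6300096, plus strand) encodes the main recycling-compartment member and was by far the most abundant. It was at 351 and 274 CPM in the vehicle libraries, against 337 and 287 CPM after DCA. The DCA libraries lay between the vehicle libraries, so the treatments overlapped fully. The mean was 312 ± 54.3 CPM (SD, n = 2) without and 312 ± 35.7 CPM (SD, n = 2) after DCA. The log2 fold change of Ehd1 was -0.0014, with a p-value of 0.995 before and 0.999 after adjustment in the edgeR quasi-likelihood fit. The 95% interval of the difference, from limma on log2(CPM + 1), ran from -0.54 to 0.55, so a fall of up to 31.3% or a rise of up to 46.5% lay within it.

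Ehd4 (Entrez gene 98878, chromosome 2, 120089175 to 120154606, minus strand), the early endosome member, was at 15.8 and 12.2 CPM in the vehicle libraries, against 9.86 and 13.3 CPM after DCA. DCA replicate 1 was the lowest library, and DCA replicate 2 lay between the vehicle libraries. Its log2 fold change was -0.28, with a p-value of 0.677 before and 0.999 after adjustment in the edgeR quasi-likelihood fit, and the limma interval on log2(CPM + 1) ran from -1.64 to 1.12.

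Ehd2 (Entrez gene 259300, chromosome 7, 15946958 to 15967567, minus strand), the caveolar member, was low and not found in every library. Counts were 214 and 0 for vehicle replicates 1 and 2, and 0 and 145 for DCA replicates 1 and 2, or 5.85, 0, 0 and 0.603 CPM. Each treatment thus had 1 library with the gene and 1 without it. Its log2 fold change of -3.24 (unadjusted p = 0.362, adjusted p = 0.999, edgeR quasi-likelihood fit) rests on vehicle replicate 1, without which the gene no longer passed the filter on low counts. Among the 8726 genes at or above the Ehd2 level in vehicle replicate 1, 163 (1.87%) had no count in vehicle replicate 2. The genes that build caveolae were also scarce. Cav1 and Cavin2 had no count in any library, and Cav2 and Cavin1 stayed under 1 CPM in every library.

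Over all 11184 genes tested, 0% had an adjusted p below 0.05 in the edgeR quasi-likelihood fit, and 4.27% had an unadjusted p below 0.05, 1.73% in the direction of a lower level with DCA. For 33.3% of the genes both DCA libraries lay on 1 side of both vehicle libraries, with 14.7% lower in both DCA libraries. Of the members, Ehd3 alone had libraries that did not overlap, and nothing is read from this, since that difference chose the family. DESeq2 gave 128 genes with an adjusted p below 0.05 and 784 with an unadjusted p below 0.05, and none of Ehd1, Ehd2 and Ehd4 was among either group.

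To compare members with each other, CPM was divided by transcript length in kilobases. With vehicle the order was Ehd1 at 93.2 ± 16.2 CPM per kb (SD, n = 2), Ehd4 at 3.75 ± 0.678, Ehd3 at 3.48 ± 1.79 and Ehd2 at 0.571 ± 0.808. Ehd4 and Ehd3 exchanged places between the vehicle libraries, with 4.23 against 4.75 CPM per kb in replicate 1 and 3.27 against 2.21 in replicate 2, and so did not differ beyond their spread. Ehd2 was below both in each vehicle library. With DCA the order was Ehd1 at 93.1 ± 10.7 CPM per kb, Ehd4 at 3.10 ± 0.646, Ehd2 at 0.0589 ± 0.0832 and Ehd3 at 0, and Ehd2 and Ehd3 were both at 0 in DCA replicate 1. Ehd1 exceeded Ehd3 22.0-fold in vehicle replicate 1 and 36.9-fold in vehicle replicate 2. By level per kb, Ehd1 stood above 90.1% of the 10793 tested genes with an annotated length in vehicle, Ehd4 above 33.7% and Ehd3 above 32.2%.

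The summed family level was 115 and 87.2 CPM per kb without DCA, against 103 and 89.2 CPM per kb after it, and the treatments overlapped. Ehd3 supplied 4.14% of the sum in vehicle replicate 1 and 2.54% in vehicle replicate 2. Ehd1 supplied 91.2% and 93.7% of it with vehicle, and 97.4% and 95.9% with DCA. The shares of Ehd1 are higher in both DCA libraries, which follows in part from Ehd3 being at 0 in the same sum. Without Ehd3, the other 3 members together were at 97.5 ± 17.7 CPM per kb with vehicle and 96.2 ± 9.92 CPM per kb with DCA (SD, n = 2 each). Their difference, DCA minus vehicle, was -1.25 CPM per kb with a standard error of 14.3.

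An offset by paralogs would have to supply 3.48 CPM per kb, the mean vehicle level of Ehd3. In Ehd1 that is a rise of 3.74%, or 0.053 on the log2 scale, where the standard error of the Ehd1 difference between treatments was 0.21 on the log2 scale. The SD of Ehd1 between vehicle libraries, 16.2 CPM per kb, was 4.66 times the whole Ehd3 level. A rise of Ehd1 of that size was therefore not detectable with these libraries. In Ehd4 an offset would take a rise of 92.7%, or 0.95 on the log2 scale, and the measured mean of Ehd4 was lower with DCA, although 0.95 lies inside its limma interval. Ehd2 had a lower mean with DCA as well. No paralog thus had a higher mean level by more than its spread between libraries. The summed family level stayed within the spread of the vehicle libraries. That sum could not show the loss of Ehd3, which was at most 4.14% of it, and so does not answer whether an offset took place.

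**Figure D2:**
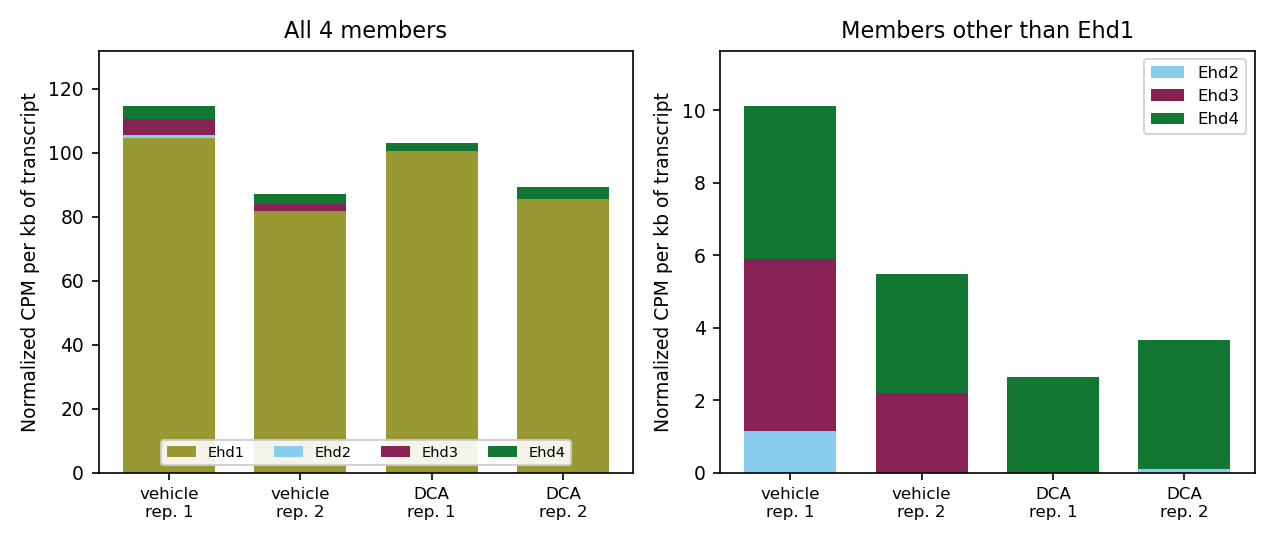
Stacked bars of normalized CPM per kb of transcript for the EHD members in each of the 4 libraries, with all members on the left and Ehd2, Ehd3 and Ehd4 on the right on a smaller scale. Ehd1 makes up 91.2% to 97.4% of each left bar, and on the right the Ehd3 segment is present with vehicle (4.75 and 2.21 CPM per kb) and absent with DCA while Ehd4 lies between 2.64 and 4.23 CPM per kb throughout.

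EHD proteins act through partners that bind the EH domain or share their membranes, and 11 of these were examined, of which 10 passed the filter on low counts. In the edgeR quasi-likelihood fit 0 of the 10 had an unadjusted p below 0.05, against 4.27% of all genes tested. Libraries did not overlap for 3 of the 10, a share near the 33.3% of all genes, and nothing is read from it about the partners. Numb, an adaptor of the endocytic pathway, was at 16.4 and 18.2 CPM in the vehicle libraries, against 6.96 and 1.68 CPM after DCA. Both DCA libraries were below both vehicle libraries, with a log2 fold change of -2.01 (unadjusted p = 0.0669, adjusted p = 0.999). Its unadjusted p was 0.039 with DESeq2 and 0.0329 with limma, with adjusted p-values of 0.673 and 0.955. Under the edgeR alternatives that kept all 4 libraries, the unadjusted p of Numb ran from 0.0545 to 0.074. With 1 library left out, its log2 fold change ran from -3.37 (without DCA replicate 1) to -1.31 (without DCA replicate 2).

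Pacsin3, which encodes a membrane-bending F-BAR protein, had 37 and 0 counts in the vehicle libraries, against 161 and 1247 after DCA, or 1.01 and 0 CPM against 4.98 and 5.18 CPM. Rab11fip2, an adaptor that links EHD proteins to Rab11, had 3 and 49 counts in the vehicle libraries, against 108 and 2013 after DCA, or 0.0820 and 1.87 CPM against 3.34 and 8.36 CPM. Their vehicle means, 0.51 CPM for Pacsin3 and 0.98 CPM for Rab11fip2, were under the 1 CPM of the filter. Both genes thus passed it only through their DCA libraries, so their values are not support for a change. Both were above both vehicle libraries in both DCA libraries. Their log2 fold changes were 3.32 (unadjusted p = 0.204) and 2.59 (unadjusted p = 0.216) in the edgeR quasi-likelihood fit. Their adjusted p was 0.999. The Rab11fip2 value was 6.14 without vehicle replicate 2 and 1.62 without vehicle replicate 1, and the Pacsin3 value was 2.33 without vehicle replicate 2. Without vehicle replicate 1, where the remaining vehicle library is at 0, the Pacsin3 fit gave 11.98, which is no bound.

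Pacsin1, from the same F-BAR family, had 147 and 0 counts in the vehicle libraries, against 0 and 56 after DCA, the pattern of Ehd2. Pacsin2, the F-BAR member most abundant here in counts, was at 100.1 and 53.6 CPM in the vehicle libraries, against 91.8 and 94.6 CPM after DCA. Both DCA libraries of Pacsin2 lay inside the range of the vehicle libraries. Snap29, a SNARE protein, was at 2.19 and 30.3 CPM in the vehicle libraries, against 28.3 and 21.1 CPM after DCA, and the vehicle replicates differed from each other more than the treatments did.

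Micall1, the scaffold that brings EHD1 to tubular recycling endosomes, was at 10.8 and 3.47 CPM in the vehicle libraries, against 6.90 and 9.94 CPM after DCA. Ehbp1l1, an EHD-binding adaptor, was at 199.5 and 57.4 CPM in the vehicle libraries, against 136 and 129 CPM after DCA. Rbsn, which encodes the Rab effector rabenosyn-5, was at 44.7 and 15.5 CPM in the vehicle libraries, against 34.9 and 16.0 CPM after DCA. For these 3 genes both DCA libraries lay between the vehicle libraries. Ankfy1, encoding an endosomal Rab5 effector, was at 24.1 and 44.0 CPM in the vehicle libraries, against 28.5 and 16.3 CPM after DCA. Ehbp1 had 26 and 46 counts in the vehicle libraries, against 0 and 234 after DCA, and did not pass the filter.

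**Figure D3:**
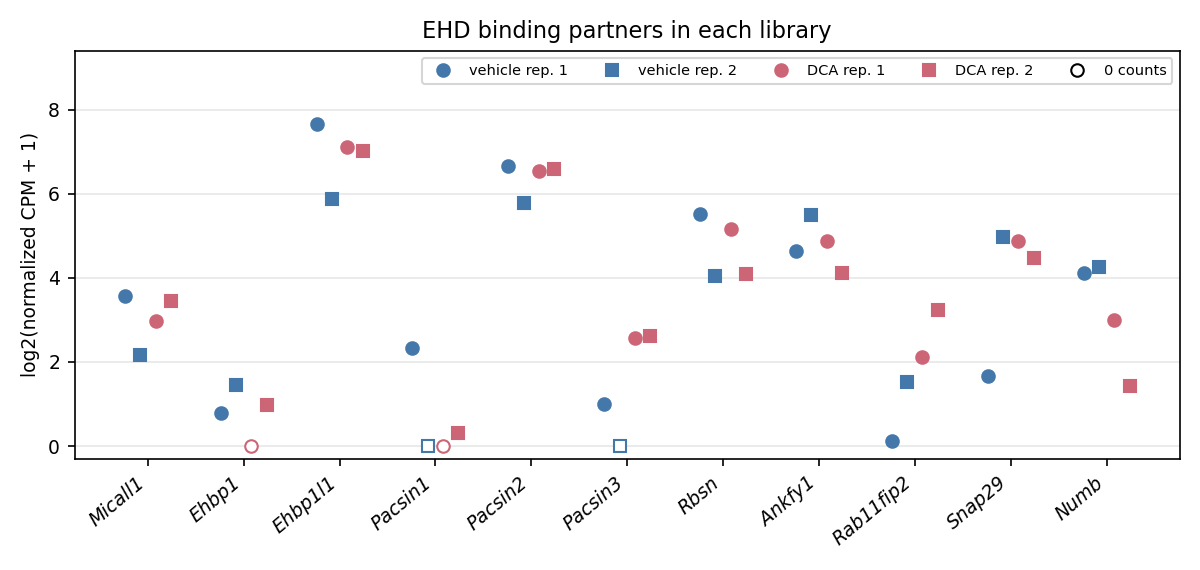
Level as log2(normalized CPM + 1) of 11 EHD binding partners in the 2 vehicle (blue) and 2 DCA (red) libraries, 1 point per library, with open symbols for 0 counts. Numb lies lower in both DCA libraries, Pacsin3 and Rab11fip2 lie higher in both, and the other partners overlap between treatments.

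Beyond the partners, endocytic recycling uses Rab and Arf GTPases, sorting complexes on the endosome, and tethers and SNAREs at the plasma membrane. Together with the partners, 78 such genes were examined, and 68 passed the filter. None of the 68 had an adjusted p below 0.05 in the edgeR quasi-likelihood fit, nor with DESeq2 or limma, and 2 of them (2.94%) had an unadjusted p below 0.05, 1 higher and 1 lower with DCA, against 4.27% of all genes tested. The 2 were Stx12 and Cavin3. DESeq2 gave 5 at an unadjusted p below 0.05. Libraries did not overlap for 36.8% of them, 12 higher and 13 lower with DCA, against 33.3% of all genes. The median log2 fold change was 0.072, and it was 0.0080 over all genes tested.

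Stx12, which encodes a SNARE of recycling endosomes, was the gene with the lower level. It was at 83.7 and 93.5 CPM in the vehicle libraries, against 56.0 and 48.1 CPM after DCA, and the treatments did not overlap. The log2 fold change was -0.77, with a p-value of 0.0352 before and 0.999 after adjustment in the edgeR quasi-likelihood fit. The unadjusted p was 0.0855 without vehicle replicate 2, 0.0999 without DCA replicate 1 and 0.188 without DCA replicate 2. Cavin3, a coat protein of caveolae, was at 0 counts in each vehicle library, against 115 and 210 after DCA, or 3.56 and 0.873 CPM. The floor of 3 counts per library had a mean of 0.0982 CPM over the vehicle libraries. Against that mean floor the DCA mean of Cavin3 was 22.5-fold higher, and DCA replicate 2 alone 8.88-fold higher. Cavin3 passed the filter only through its DCA libraries, and without DCA replicate 1 it no longer passed, so its place among the 2 genes is not support for a change.

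In the other groups, the genes named were chosen after their values were seen. Among 11 recycling Rab and Arf GTPases, 10 had a log2 fold change within 0.5 of 0. Rab11a, the GTPase that marks the recycling endosome, was at 255 and 239.7 CPM in the vehicle libraries, against 358 and 338 CPM after DCA. Its log2 fold change was 0.49 (unadjusted p = 0.0532, adjusted p = 0.999, edgeR quasi-likelihood fit). Both DCA libraries of Rab11a were above both vehicle libraries. Rab4a, of the fast recycling route, was at 43.5 and 54.7 CPM in the vehicle libraries, against 31.9 and 40.3 CPM after DCA, where both DCA libraries were lower (unadjusted p = 0.261).

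Of 15 genes of the retromer, the retriever and the sorting nexins, all were found in every library, and 12 had a log2 fold change within 0.5 of 0. Vps35, the core retromer subunit, was at 484 and 337 CPM in the vehicle libraries, against 278 and 263 CPM after DCA, with a log2 fold change of -0.60 (edgeR quasi-likelihood fit, unadjusted p = 0.0515). Snx4, a sorting nexin of the transferrin receptor route, was at 55.4 and 40.005 CPM in the vehicle libraries, against 83.5 and 71.6 CPM after DCA, with a log2 fold change of 0.70 (unadjusted p = 0.0713). The adjusted p of both genes was 0.999, and neither had libraries that overlapped between treatments.

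Of 8 early endosome genes, 6 had a positive log2 fold change, and 4 had both DCA libraries above both vehicle libraries, where 18.6% of all genes tested did. None of the 8 had an unadjusted p below 0.05. Rabgef1, an activator of Rab5, was at 5.19 and 13.2 CPM in the vehicle libraries, against 26.3 and 18.2 CPM after DCA (a log2 change of 1.27, unadjusted p = 0.113, adjusted p = 0.999, edgeR quasi-likelihood fit). Of 15 exocyst and SNARE genes, 14 had an unadjusted p of 0.05 or more, and 9 had a log2 fold change within 0.5 of 0. Of the 6 cargo genes examined, Tfrc, the transferrin receptor, was at 235 and 144.5 CPM in the vehicle libraries, against 172 and 183 CPM after DCA, and its DCA libraries lay inside the vehicle range. Itgb1, an integrin chain that recycles through EHD1 compartments, was at 64.3 and 13.7 CPM in the vehicle libraries, against 50.3 and 51.8 CPM after DCA, again inside the vehicle range.

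**Figure D4:**
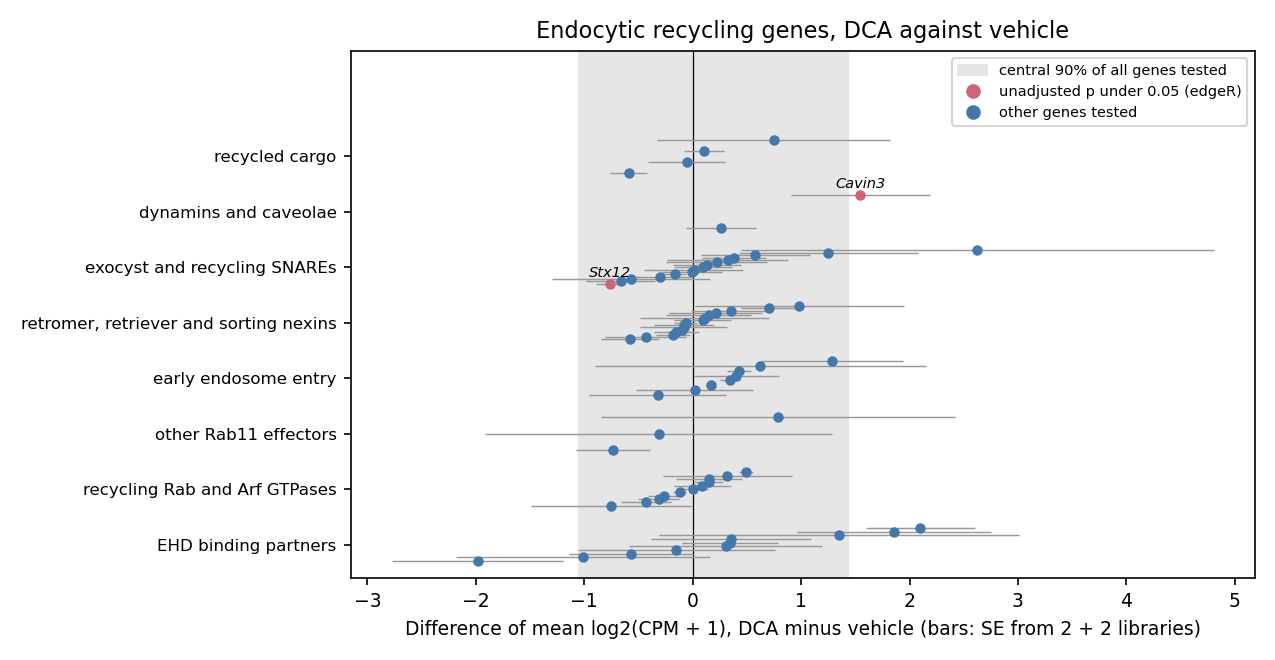
Difference of mean log2(CPM + 1), DCA minus vehicle, for the 68 endocytic recycling genes tested, 1 point per gene grouped by role, with bars for the standard error from 2 vehicle and 2 DCA libraries and a grey band from percentile 5 to percentile 95 of all 11184 genes tested. The band runs from -1.05 to 1.43 and holds 63 of the 68 genes, and Stx12 and Cavin3 are the genes with an unadjusted p below 0.05.

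Zeros in this pathway fell mostly in vehicle replicate 2, the shallowest library. There 5 of the 68 recycling genes tested had no count (Pacsin1, Pacsin3, Rab11fip4, Appl2 and Cavin3), or 7.35%, where 5.68% of all genes tested were at 0 in that library. In DCA replicate 1 the genes at 0 were Pacsin1 and Rab11fip4 (2.94%, against 3.14% of all genes tested). In vehicle replicate 1 it was Cavin3 (1.47%, against 3.84%). In DCA replicate 2, where 0.867% of all genes tested were at 0, there were 0. These shares were near or below those of all genes, and nothing is read from them about the pathway.

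For each member, the genes with the most similar pattern over the 4 libraries were found by the root mean square difference of log2(CPM + 1) after each gene was centred on its mean. For Ehd3 these were Zfp518b (0.313), Frmpd1 (0.427), Nid2 (0.468), Zfp850 (0.498) and 5430400D12Rik (0.612). Zfp518b had 441 and 135 counts in the vehicle libraries, against 4 and 0 after DCA, and Nid2 had 329 and 127 against 0 and 52. Frmpd1 had 341 and 271 counts in the vehicle libraries, against 0 in both DCA libraries. For Ehd1 they were Scamp3 (0.00772), Cd44 (0.0331) and Renbp (0.0361), for Ehd4 Coa5 (0.0232), Ptma (0.0255) and Mrpl50 (0.0335), and for Ehd2 Susd2 (0.0198), Cd200r2 (0.0461) and Slc12a5 (0.0586). The differences were larger for Ehd3 than for its paralogs. Such differences can grow with how far a gene moves between libraries, so they do not show how many genes share its pattern. With 4 libraries, such a likeness is a description only.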

How the data were processed

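RNA-Seq of cultured large intestinal ILC2s (2 vehicle and 2 DCA libraries) was taken from the count table that the authors deposited. The authors made SMART-Seq cDNA and sequenced paired reads, which were trimmed (cutadapt 1.9) and mapped to mm10 (HISAT2 2.2.1). The deposited values are whole-number counts per gene, although the table is named for FPKM, and the counting tool, annotation and strand setting are not given in the sources used here. More genes held 2 counts than 1 (484 and 253 genes in vehicle replicate 1), a pattern seen when each mate of a pair adds a count. Libraries were grouped by their labels.

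Counts were analysed with edgeR 4.0.16 in R 4.3.3 (two-sided quasi-likelihood test after TMM scaling, with Benjamini-Hochberg adjustment over all genes tested) for 11184 genes whose mean reached 1 CPM. Intervals came from limma 3.58.1 on log2(CPM + 1). Standard errors came from the spread of log2 values or CPM per kb between libraries. Lengths and positions are of GENCODE M21 (GRCm38), using the longest coding transcript, and the coding sequences were aligned with Biopython 1.88. Promoters are from RefSeq (GRCm38.p6). Alternatives were DESeq2 1.42.0, median-of-ratios and total-count scaling, other filters, limma with pseudocounts of 1 and 0.1, the replicate number as a block, other lengths and floors, thinning DCA replicate 2 to 32102232 counts, and leaving out each library. The test was run on counts simulated at the spread of these libraries and at a smaller spread. An outcome was required only at the smaller spread. The outcome at the spread of these libraries is not reported here, so no power of the test is stated for them. The genes named were the 4 members, their 11 listed partners, recycling genes with an unadjusted p below 0.05, and the 5 genes most like Ehd3 and 3 most like each paralog. Others were named after their values were seen. The members and lists were chosen with earlier results of these data known. Deviations from the treatment means correlated at 0.0197 between libraries with the same number. Other experiments of the study were not analysed here.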

Additional observations from a re-analysis of the deposited data

How the results depend on the processing

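The log2 fold change of Ehd1, -0.0014, stayed within 0.17 of 0 under every alternative. It turned positive without a filter on low counts (0.0026), with limma at a pseudocount of 1 (0.0050) and of 0.1 (0.0050), and with the replicate block (0.0050), and ran from -0.17 (vehicle replicate 2 left out) to 0.16 (vehicle replicate 1 left out), with unadjusted p-values of 0.571 or more throughout. Ehd4 stayed negative, from -0.50 to -0.080 over the fits that each left out 1 library. Ehd2 could not be fitted with a mean of at least 5 CPM or without vehicle replicate 1, and was -1.05 with limma at a pseudocount of 1. With 1 library left out, its values ran from -9.54 without DCA replicate 2, a fit in which DCA is at 0 and which is no bound, to -2.26 without DCA replicate 1. None of the paralogs had an adjusted p below 0.05 in any fit. The log2 ratio of the summed family, -0.069, was -0.095 to -0.073 with other scalings, lengths and depth, and -0.25 to 0.12 with 1 library left out, all within the spread between libraries.

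The log2 bound for Ehd3, -7.92 at a floor of 3 counts, was -9.50 at 1 count, -6.92 at 6 counts and -7.09 with DCA replicate 2 thinned, and -9.99 to -7.10 with 1 library left out. These shifts follow from the floor and the depth of the library at 0.

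Genes with an adjusted p below 0.05, 0 by the edgeR test, numbered 36 without a filter, 128 with DESeq2, and 0 to 20 with 1 library left out (20 without vehicle replicate 1). At an unadjusted p below 0.05 there were 478 genes at first, 847 without a filter, 784 with DESeq2 and 106 to 1497 with 1 library left out (1497 without vehicle replicate 1, 1231 without vehicle replicate 2, 106 without DCA replicate 1, 259 without DCA replicate 2). Of the endocytic recycling genes, 2 at first, the unadjusted p was under 0.05 for 5 without a filter, 5 with DESeq2, 4 with filterByExpr, 4 with limma at a pseudocount of 1, and 0 to 11 with 1 library left out (11 without vehicle replicate 1, 7 without vehicle replicate 2, 1 without DCA replicate 1, 0 without DCA replicate 2), and 1, Exoc6b, passed an adjusted p of 0.05 without vehicle replicate 1 only. The median log2 fold change of the recycling genes ran from -0.10 (vehicle replicate 2 left out) to 0.23 (vehicle replicate 1 left out). Where 1 library is left out, the lone library of a treatment is assumed to vary like the other treatment. The cause was not tested.

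Without vehicle replicate 2 the sign changed for Micall1 (-0.36), Ehbp1l1 (-0.59) and Pacsin2 (-0.10), without vehicle replicate 1 for Rbsn (0.69) and Snap29 (-0.33), and without DCA replicate 2 for Micall1 (-0.048) and Rbsn (0.22). At the other end of these fits were Micall1 at 1.25, Ehbp1l1 at 1.18, Pacsin2 at 0.77, Rbsn at -0.90 and Snap29 at 3.50. The replicate numbers share only a label. With the replicate block 0 genes had an adjusted p below 0.05, 450 genes and 3 recycling genes an unadjusted p below 0.05, and the log2 fold change was -0.28 for Ehd4 and -1.78 for Ehd2.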
